A study of Mus musculus with 7 samples.

Results

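The unfolded protein response and the heat shock response were followed in mouse kidney through 37 genes, picked by symbol out of the 24328 gene symbols of the deposited tables. They comprise 11 chaperones and co-chaperones of the endoplasmic reticulum (ER), 4 protein disulfide isomerases, 4 genes of ER-associated degradation, 5 stress sensors and transcription factors, 5 targets of the ATF4 and CHOP branch, and 8 heat shock proteins of the cytosol and mitochondria. All 37 passed the filter on low values, a mean over mice of at least 5 normalized counts. The lowest was Chac1, with a mean of 20.4. A normalized count is the number of reads on a gene divided by the DESeq2 size factor of its library. The kidneys came from 3 LBR-null mice (Lbric-J/ic-J, numbered 4001, 4002 and 4007) and 1 WT littermate (Lbr+/+, numbered 4009). LBR, the lamin B receptor, is a protein of the inner nuclear membrane that ties heterochromatin to the nuclear envelope and also has a sterol reductase domain, and both copies of its gene carry the ic-J mutation in every cell of the LBR-null mice. All mice were of strain C57BL/6J, 4 weeks old and bred from heterozygous stock, and no treatment is given. Polyadenylated RNA of the right kidney was sequenced, with 2 libraries from each mouse except 4002, which gave 1, so the comparison rests on 5 LBR-null libraries and 2 WT libraries. The extraction protocol in the labels names LBR-null kidneys only, also for the WT samples.

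The ER is where secreted and membrane proteins are folded. When unfolded chains build up there, the membrane sensors IRE1 (Ern1), PERK (Eif2ak3) and ATF6 are activated, splicing Xbp1 mRNA, slowing translation through phosphorylated eIF2α while favouring ATF4, and releasing the ATF6 transcription factor. These branches raise ER chaperones, degradation factors and, under lasting stress, the CHOP (Ddit3) programme. In the cytosol, misfolded proteins free the factor HSF1, which binds heat shock elements and raises Hspa1a, Hspa1b, Hsph1, Dnajb1 and other chaperones. Proximal tubule cells of the kidney take up and degrade filtered protein and carry out much membrane transport.

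Lbr itself does not test the genotype, since its mRNA was 322, 339.6 and 471 normalized counts in the LBR-null mice (means over libraries) and 398 in WT. The libraries held 20694016 to 26333284 reads on genes, and 1 read was worth 0.787 to 1.15 normalized counts. The labels give no sex. Xist, the RNA that coats an inactive X chromosome, was at 5352 to 10162 normalized counts in the libraries of mice 4001 and 4007. In those of mouse 4002 and WT it was at 31.7 to 65.3. Ddx3y, a gene of the Y chromosome, was at 39.2 to 149 in mice 4001 and 4007 and at 1269 to 1516 in mouse 4002 and WT. For mice 4001 and 4007, genotype therefore cannot be told apart from sex or whatever else goes with these levels. Of the 12 kidney epithelium markers, 8 were lower in all 5 LBR-null libraries than in both WT libraries and 1 was higher, where 25.7% of all genes tested were lower in this sense and 25.5% were higher. The lower ones included the proximal tubule phosphate transporter Slc34a1 (14026 to 29136 against 63024 and 65173) and the endocytic receptor Lrp2 (5398 to 12525 against 23313 and 23327). The sums of all 12 kidney epithelium markers overlapped (133469 to 240755 against 237888 and 238432). The 10 neutrophil markers summed to 474 to 2736 in LBR-null and to 102 and 116 in WT. The 9 macrophage markers summed to 2613 to 3065 against 4086 and 4092, and 7 of the 9 were lower throughout. Of the 6 adipocyte markers 4 were lower throughout, but the sums of all 6 overlapped (5093 to 8846 against 6409 and 6492). The skeletal muscle genes Ckm and Acta1 reached 622 and 196 in mouse 4001 and at most 33.9 and 10.2 in all other libraries. The summed plasma and B cell markers overlapped (162 to 279 against 233 and 251), and of the 6 tested Cd79a alone was lower throughout. Of 11 immediate early genes 3 were higher throughout, a share near the 25.5% of all genes, and their sums were 6343 to 11418 against 6046 and 6286. The sums of the 6 adrenal cortex markers were 172 to 237 against 124 and 143. The part of cell composition in the differences below was not tested, and in bulk RNA fewer cells of a type and less RNA per cell cannot be told apart.

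Promoter windows from RefSeq (assembly GRCm38.p6), from 250 bases before to 50 after each transcription start, were found for 32 of the 37 members, with none for Hyou1, Manf, Atf6, Hspa8 and Hsp90aa1. The ER stress response element, the letters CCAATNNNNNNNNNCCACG on either strand, is the site where NF-Y and ATF6 or XBP1 bind together. It was present in the windows of 8 members and in those of 37 of all 27025 genes with a window (0.137%). A compact second form, ATTGG and CCACG with 1 base of any kind between them, was present in Herpud1 and, after the start, in Dnajb11, and in 0.0444% of all genes. The stretches are shown because they mark the members in whose windows the textbook site of this response was found. Each reads 5′ to 3′ on the strand of the gene, with the boxes in capitals. A box pair written CGTGG and ATTGG is the same element in the other orientation. Hsp90b1 carries the element in both orientations, 212 and 107 bases before the start.
Hspa5 (chr2:34772015-34772053, forward strand): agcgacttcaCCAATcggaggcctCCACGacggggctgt
Calr (chr8:84847065-84847103, reverse strand): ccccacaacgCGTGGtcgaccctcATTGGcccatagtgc
Hsp90b1 (chr10:86705628-86705666, reverse strand): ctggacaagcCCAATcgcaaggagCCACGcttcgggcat
Hsp90b1 (chr10:86705523-86705561, reverse strand): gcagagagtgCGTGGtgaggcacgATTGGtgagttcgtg
Canx (chr11:50325790-50325828, reverse strand): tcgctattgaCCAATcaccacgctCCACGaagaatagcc
Pdia6 (chr12:17266481-17266519, forward strand): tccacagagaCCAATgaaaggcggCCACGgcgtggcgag
Dnajc3 (chr14:118937817-118937855, forward strand): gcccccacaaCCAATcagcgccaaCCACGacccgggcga
Creld2 (chr15:88819510-88819548, forward strand): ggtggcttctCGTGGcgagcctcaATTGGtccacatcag
Syvn1 (chr19:6046522-6046560, forward strand): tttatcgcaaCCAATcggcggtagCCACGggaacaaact
Herpud1 (chr8:94386367-94386397, forward strand): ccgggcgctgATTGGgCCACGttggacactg
The unfolded protein response element TGACGTGG was found in no member window and in 0.714% of all genes. The C/EBP-ATF response element, searched as ATTGCATCA and ATTGCATCG, was also found in no member window and in 0.27% of all genes. A heat shock element of 3 units, GAANNTTCNNGAA or TTCNNGAANNTTC, was found in Hsph1, after the start, and in Hspd1, where 2 matches overlap, and in 0.662% of all genes. The Hspd1 stretch is shown as the only heat shock element found upstream of a member, and the units of the first of the 2 matches are in capitals.
Hspd1 (chr1:55088054-55088086, reverse strand): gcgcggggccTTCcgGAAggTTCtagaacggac
A match to letters is a description of the window and no evidence of binding in these kidneys. The search allowed no mismatch, so a window without a match is not shown to lack a site.

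The median of the set was lower than WT in each of the 3 LBR-null mice, and the highest members were Trib3 and Ppp1r15a, both of the ATF4 and CHOP branch. The median member differed by -0.39 on the log2 scale (LBR-null minus WT, where the scale is log2 of normalized counts + 1). By mouse this median was -0.06 in 4001, -0.44 in 4002 and -0.41 in 4007, against 0.01 in each of them over all 17283 genes tested. The log2 difference was negative for 25 members and positive for 12. The 37 genes together took 0.625% to 0.713% of the normalized counts in the LBR-null libraries and 0.968% and 0.976% in the WT libraries, and the ranges did not overlap.

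Of the 37 members, 17 were lower in all 5 LBR-null libraries than in both WT libraries, beside 25.7% of all genes tested, and 5 were higher, beside 25.5%. The other 15 overlapped. Among genes with a mean of at least 100, which hold 35 members, 16 were lower, beside 29.3% of all such genes, and 5 were higher, beside 22.2%. By the 2-fold rule, a ratio of at least 2 between the mean of the LBR-null mice and WT, 3 members were lower (Calr, Hspa1b and Hsph1; 7.04% of all genes) and 2 were higher (Trib3 and Ppp1r15a; 14.5% of all genes). Hspa1b was 1.78-fold lower without mouse 4001, which is inside the limit. With a mean of at least 100 the same 5 genes stood beside 5.07% and 4.79%.

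No member passed limma, which was fitted on mouse means over all genes with Benjamini-Hochberg adjustment (limits of 0.05 and 2-fold), and 0 (0.0%) of all genes did. The lowest adjusted p was 0.11 among members and 0.0533 among all genes. With 1 WT mouse and 2 residual degrees of freedom the test assumes that WT mice vary as LBR-null mice do, and all differences here are measured against that 1 mouse. At an unadjusted limma p under 0.05, 4 members were lower (Calr, Hyou1, Sdf2l1 and Hsph1; 8.05% of all genes) and 2 were higher (Trib3 and Ppp1r15a; 10.7%). edgeR on recovered reads called no member, with 0.156% of genes called lower and 0.00579% higher. DESeq2 called Calr and Hsph1 lower (3.48% of genes with an adjusted p) and Trib3 and Ppp1r15a higher (3.24%).

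Mouse 4001, the mouse with muscle RNA, carried the highest level of the 3 LBR-null mice for 27 of the 37 members, against 9 in mouse 4002 and 1 in mouse 4007, where it was highest for 40.5% of all genes tested. With libraries scaled to equal totals it was highest for 19 members and 24.7% of all genes. The median member differed 1.43-fold between the highest and the lowest LBR-null mouse, while the 2 libraries of a mouse differed by a median of 1.11-fold in 4001, 1.04-fold in 4007 and 1.02-fold in WT. Without mouse 4001, 24 members were lower in all libraries (35.1% of all genes) and 7 were higher (35.8%). In that fit limma called Trib3 and Ppp1r15a higher (2.52% of genes) and Pdia6 and Hspd1 lower (3.48%). Without mouse 4002, 18 members were lower in all libraries (29.6% of all genes) and 9 were higher (29.7%), and limma called Hsph1 lower (1.85% of genes) and no member higher (2.29%). Without mouse 4007, 17 members were lower in all libraries (28.0% of all genes) and 5 were higher (28.1%), the median member was at -0.29, and limma called no member (0.0% of genes in either direction), with a lowest adjusted p of 0.304 among them. An unadjusted p under 0.05 was reached by 16 lower and 2 higher members without mouse 4001 (13.2% and 14.9% of all genes), by 4 and 3 without mouse 4002 (8.62% and 12.2%), and by 1 and 2 without mouse 4007 (4.25% and 6.38%). Mouse 4002 alone, whose Xist level is near that of WT, had 26 members lower (44.3% of all genes) and 8 higher (46.4%) than both WT libraries.

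**Figure D1:**
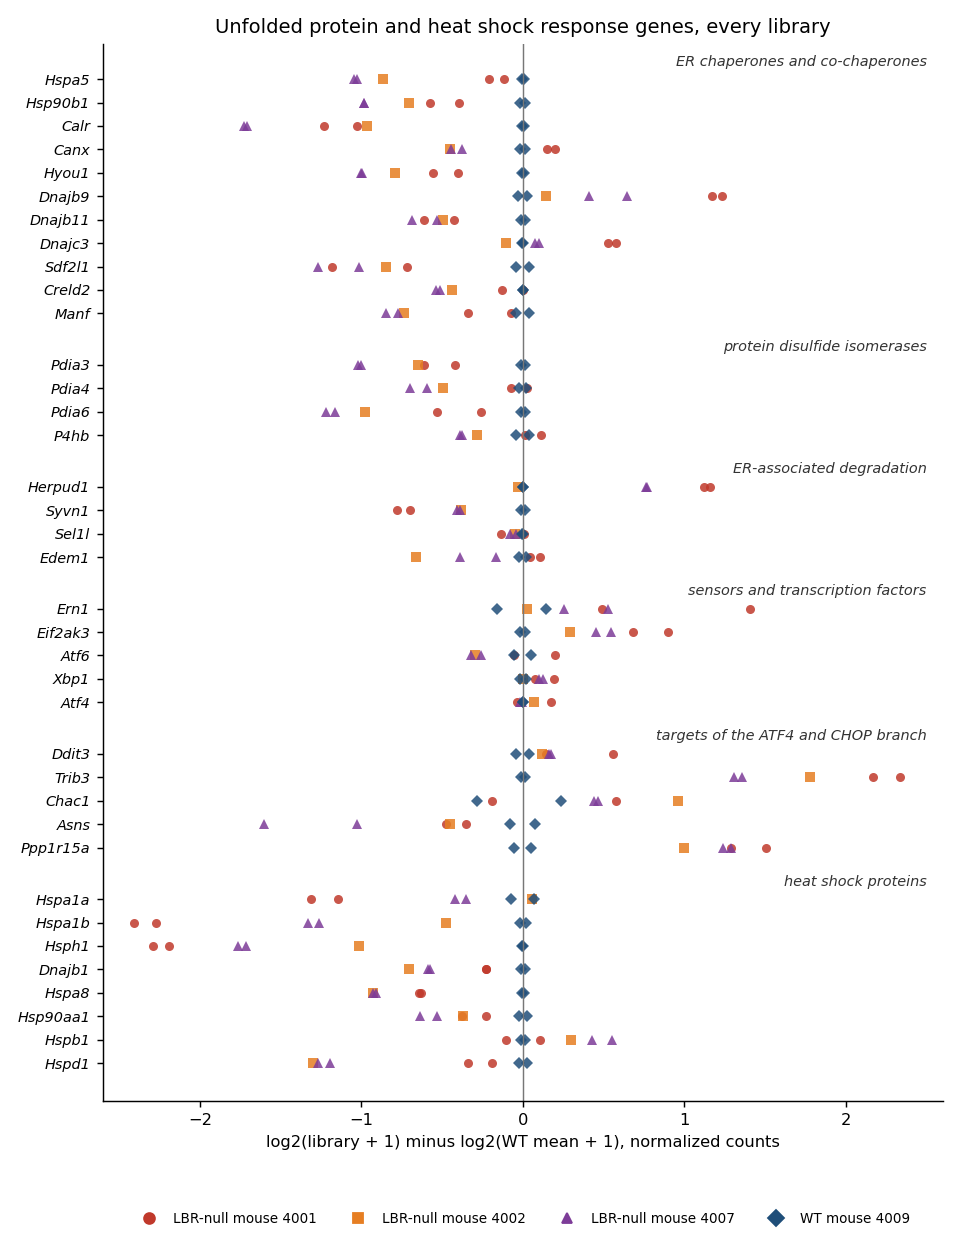
Each point is 1 library, and the horizontal axis is its log2(normalized count + 1) minus that of the WT mean, with a row for each of the 37 genes grouped by role. The 17 genes lower in all 5 LBR-null libraries, such as Calr, Hspa8 and Hsph1, lie left of the WT points, whereas Trib3 and Ppp1r15a lie to the right in all 5.

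Among the 11 ER chaperones and co-chaperones, 7 were lower in all LBR-null libraries (Hspa5, Hsp90b1, Calr, Hyou1, Dnajb11, Sdf2l1 and Manf), 1 was higher (Dnajb9) and 3 overlapped, beside 25.7% and 25.5% of all genes lower and higher, and the median log2 difference was -0.58. Together with the disulfide isomerases they took 0.288% to 0.371% of the normalized counts in LBR-null libraries and 0.493% and 0.498% in WT. Calr encodes calreticulin, a calcium-binding lectin chaperone that holds newly made glycoproteins, and is located at chr8:87365749-87370833, reverse strand in mm9. Its level was 9119 and 7902 normalized counts in mouse 4001, 9529 in mouse 4002 and 5669 and 5616 in mouse 4007, against 18672 and 18459 in the WT mouse. The LBR-null libraries lay far below WT in all 3 mice, with a mean of 7894 ± 2015 (SD, n = 3 mice), which is 2.35-fold lower than WT. The log2 difference was -1.27 ± 0.38 (SE; limma adjusted p = 0.158).

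Hspa5 encodes BiP, the main HSP70 of the ER and the brake on all 3 sensors (chr2:34627490-34632051, forward strand, mm9). It stood at 10617 and 9956 normalized counts in mouse 4001, 6298 in mouse 4002 and 5649 and 5559.9 in mouse 4007, against 11429.7 and 11560.4 in the WT mouse. Mouse 4001 was close to WT, and mice 4002 and 4007 were at about the same lower level. The log2 difference was -0.69 ± 0.41 (SE; limma adjusted p = 0.417). Hsp90b1, the ER paralogue of HSP90 also known as GRP94, was at 11401 and 10079 normalized counts in mouse 4001, 9214 in mouse 4002 and 7585 and 7602 in mouse 4007, against 14856 and 15196 in the WT mouse. All libraries were below WT, and the log2 difference was -0.72 ± 0.33 (SE; limma adjusted p = 0.307). The gene models of Hsp90b1 share 632 bases with 3 overlapping models, whose reads may be counted with it.

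Hyou1, the nucleotide exchange factor of BiP, had 1456 and 1615 normalized counts in mouse 4001, 1235 in mouse 4002 and 1071 and 1069 in mouse 4007, against 2127 and 2149 in the WT mouse. All libraries were below WT, those of mouse 4007 by the most, and the log2 difference was -0.76 ± 0.28 (SE; limma adjusted p = 0.22). Sdf2l1, a partner of the HSP40 proteins in the BiP cycle, had 214 and 154 normalized counts in mouse 4001, 195 in mouse 4002 and 145 and 174 in mouse 4007, against 362 and 342 in the WT mouse. Its level in WT was 1.96 times the LBR-null mean, just inside the 2-fold limit, and the log2 difference was -0.97 ± 0.30 (SE; limma adjusted p = 0.161). Dnajb11, a secreted BiP co-chaperone, was the most even of the group, with a mean of 1793 ± 72.7 (SD, n = 3 mice) against 2608 in WT. Manf, a secreted factor that also binds BiP, was at 1655 and 1374 normalized counts in mouse 4001, 1046 in mouse 4002 and 968 and 1019 in mouse 4007, against 1789 and 1692 in the WT mouse. The first library of mouse 4001 lay only just under WT, and the log2 difference was -0.58 ± 0.31 (SE; limma adjusted p = 0.37).

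Dnajb9 went the other way. It encodes ERdj4, a co-chaperone that passes misfolded chains to degradation and restrains IRE1 through BiP. Its level was 1835 and 1758 normalized counts in mouse 4001, 861 in mouse 4002 and 1218 and 1036 in mouse 4007, against 795 and 764 in the WT mouse. Mouse 4001 was highest, mouse 4002 was barely over WT, and the log2 difference was 0.63 ± 0.41 (SE; limma adjusted p = 0.467). The other 3 members overlapped WT. Canx, the membrane-bound partner of calreticulin, was at 10299 and 9992 normalized counts in mouse 4001, 6561 in mouse 4002 and 6924 and 6614 in mouse 4007, against 8893 and 9086 in the WT mouse. Its log2 differences had opposite signs between mice, with 0.17 in mouse 4001, -0.45 in mouse 4002 and -0.41 in mouse 4007. Dnajc3, which encodes the PERK inhibitor p58IPK, differed by 0.55 in mouse 4001, -0.11 in mouse 4002 and 0.09 in mouse 4007, and Creld2, a disulfide isomerase-like stress target, was lower in the mean (885 ± 157 against 1112) but in mouse 4001 reached WT. The pair of lectin chaperones thus stood apart, with log2 differences of -1.27 for Calr and -0.23 for Canx, though the difference between the genes was not tested.

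The 4 protein disulfide isomerases make and reshuffle the disulfide bonds of proteins in the ER, and all 4 had negative log2 differences, with a median of -0.56. Pdia6, which also binds the lumenal part of IRE1, had 4703 and 3903 normalized counts in mouse 4001, 2857 in mouse 4002 and 2418 and 2522 in mouse 4007, against 5682 and 5596 in the WT mouse. All libraries were below WT, mice 4002 and 4007 by the most, and the log2 difference was -0.85 ± 0.36 (SE; limma adjusted p = 0.272). Without mouse 4001 it was -1.09 with an adjusted p of 0.0403 in limma. Pdia3, the isomerase that works with calreticulin and calnexin on glycoproteins, had 9849 and 8628 normalized counts in mouse 4001, 8419 in mouse 4002 and 6504 and 6601 in mouse 4007, against 13069 and 13333 in the WT mouse. No library reached WT, and the log2 difference was -0.72 ± 0.33 (SE; limma adjusted p = 0.299). Pdia4 and P4hb overlapped WT through mouse 4001, with log2 differences of -0.39 and -0.20, and P4hb also serves as a subunit of collagen prolyl hydroxylase.

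**Figure D2:**
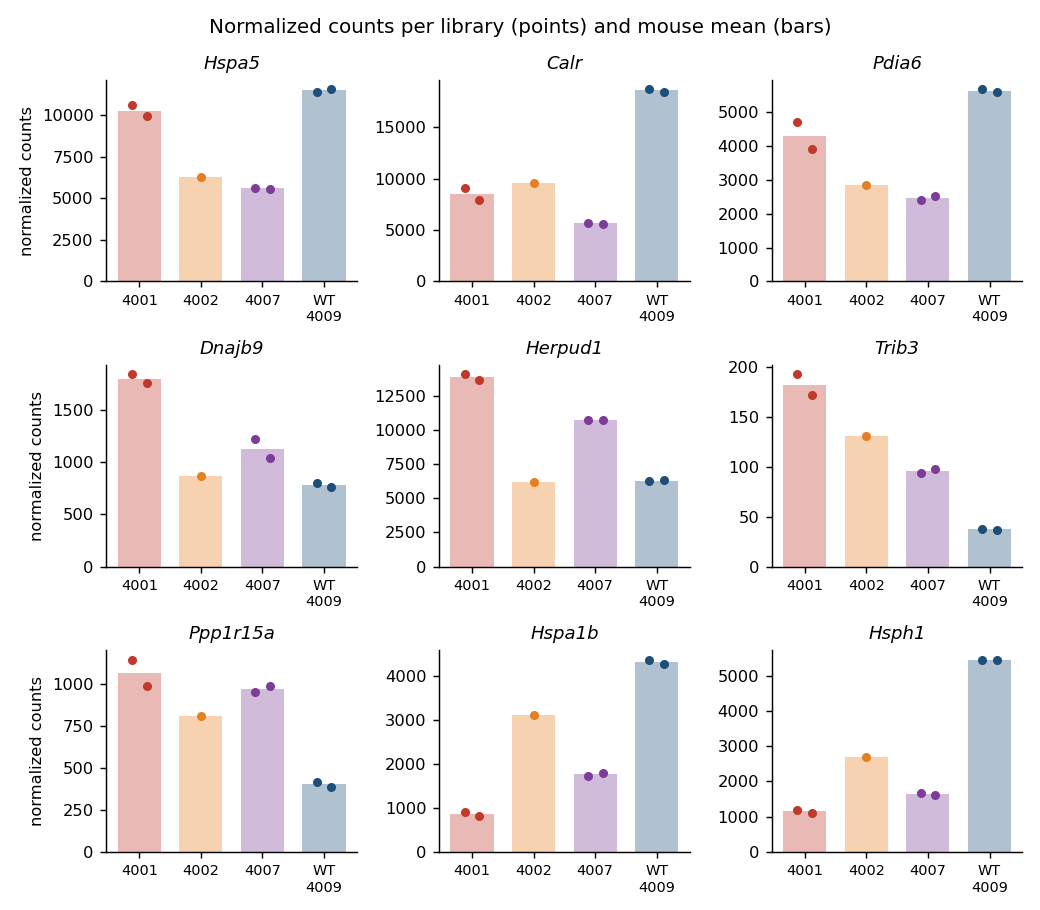
Normalized counts (vertical axes, from 0) of 9 members in each mouse, with points for libraries and bars for mouse means, and with WT mouse 4009 on the right of each panel. Calr and Hsph1 are below WT in all 3 LBR-null mice, Trib3 and Ppp1r15a are above it in all 3, and Herpud1 is above WT in mice 4001 and 4007 but at 6165 in mouse 4002, near the WT 6302 and 6314.

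The 4 members of ER-associated degradation were divided. Syvn1 encodes HRD1, the ubiquitin ligase at the core of the pathway, and had 571 and 539.5 normalized counts in mouse 4001, 708 in mouse 4002 and 707 and 696 in mouse 4007, against 917 and 934 in the WT mouse. It was lower in all libraries, lowest in mouse 4001, with a log2 difference of -0.51 ± 0.26 (SE; limma adjusted p = 0.362). Sel1l, the scaffold that holds HRD1 in the membrane, hardly differed: the LBR-null mean was 2292 ± 11 (SD, n = 3 mice) against 2385, and the 95% interval of its log2 difference ran from -0.61 to 0.49. Herpud1, a membrane adaptor of the HRD1 complex, had 14083 and 13708 normalized counts in mouse 4001, 6165 in mouse 4002 and 10718 and 10769 in mouse 4007, against 6302 and 6314 in the WT mouse. Mice 4001 and 4007 were well over WT while mouse 4002 was level with it, and the log2 difference was 0.62 ± 0.48 (SE; limma adjusted p = 0.528). Edem1, which draws mannose-trimmed glycoproteins into degradation, overlapped WT, with 0.08 in mouse 4001, -0.66 in mouse 4002 and -0.27 in mouse 4007 on the log2 scale.

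Of the sensors and transcription factors, Eif2ak3 alone was apart from WT in all libraries. It encodes PERK, the ER kinase that phosphorylates eIF2α, and had 1159 and 1351 normalized counts in mouse 4001, 885 in mouse 4002 and 1056 and 989 in mouse 4007, against 715 and 731 in the WT mouse. The level was highest in mouse 4001, and the log2 difference was 0.53 ± 0.28 (SE; limma adjusted p = 0.367). Ern1, which encodes IRE1, was low and uneven, with 135 and 256 normalized counts in mouse 4001, 98 in mouse 4002 and 139 and 115 in mouse 4007, against 106 and 85.9 in the WT mouse. The second library of mouse 4001 was far from the first, mouse 4002 lay between the WT libraries, and the log2 difference was 0.48 ± 0.46 (SE; limma adjusted p = 0.62). Atf6 overlapped WT, at -0.17 on the log2 scale. Xbp1 and Atf4 were near WT in every library. Xbp1 had a mean of 3289 ± 159.5 against 3099, and Atf4 had 3573 ± 116 against 3466 (SD, n = 3 mice). The 95% intervals of their log2 differences ran from -0.49 to 0.66 and from -0.53 to 0.62. Splicing of Xbp1 and translation of Atf4, the steps at which these factors are mainly controlled, are not measured by gene-level counts.

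The targets of the ATF4 and CHOP branch held both members that were 2-fold higher. Trib3 encodes a pseudokinase induced by ATF4 and CHOP (chr2:152163158-152169768, reverse strand, mm9). Its level was 193 and 172 normalized counts in mouse 4001, 131 in mouse 4002 and 94.1 and 97.5 in mouse 4007, against 37.8 and 37.1 in the WT mouse. All LBR-null libraries exceeded both WT libraries more than 2-fold, with a mean of 136 ± 43.6 (SD, n = 3 mice), 3.64 times WT. The log2 difference was 1.79 ± 0.45 (SE; limma adjusted p = 0.122), while DESeq2 gave an adjusted p of 0.0114 and edgeR 0.144. Ppp1r15a encodes GADD34, which guides a phosphatase to eIF2α and so lets translation resume. It had 1145 and 987 normalized counts in mouse 4001, 806 in mouse 4002 and 952 and 986 in mouse 4007, against 418 and 388 in the WT mouse. The 3 mice lay close together at 2.35 times WT in the mean. With a log2 difference of 1.22 ± 0.26 (SE; limma adjusted p = 0.11), it had the lowest adjusted p of the 37 genes, and DESeq2 gave 0.00748.

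Ddit3, which encodes the transcription factor CHOP, was higher in all libraries by a small margin, with 602 and 453 normalized counts in mouse 4001, 445 in mouse 4002 and 461 and 458 in mouse 4007, against 421 and 397 in the WT mouse. Apart from the first library of mouse 4001, the values were close to WT, and the log2 difference was 0.22 ± 0.26 (SE; limma adjusted p = 0.698). Its gene model shares 81 bases with Mars and another model, both on the opposite strand. Chac1, a glutathione-degrading enzyme, was at 12.6 and 22.2 normalized counts in mouse 4001, 29.2 in mouse 4002 and 20.5 and 20.1 in mouse 4007, against 17.3 and 11.8 in the WT mouse. These are few reads, the libraries overlapped, and the log2 difference was 0.55 ± 0.52 (SE; limma adjusted p = 0.62). Asns, asparagine synthetase and another textbook ATF4 target, was on the other side, with 103 and 95 normalized counts in mouse 4001, 96.3 in mouse 4002 and 64.3 and 42.8 in mouse 4007, against 125 and 139 in the WT mouse. All LBR-null libraries were below WT, mouse 4007 by the most, and the log2 difference was -0.72 ± 0.47 (SE; limma adjusted p = 0.461).

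**Figure D3:**
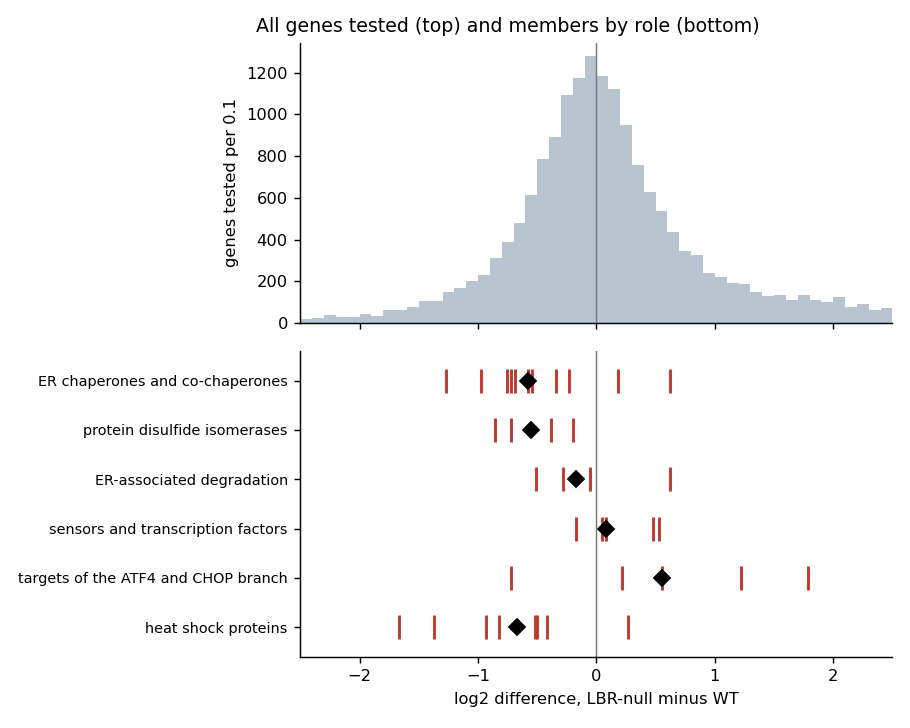
The upper panel counts the genes tested by their log2 difference (LBR-null minus WT) in steps of 0.1, shown from -2.5 to 2.5, and the lower panel marks each member by role, with diamonds for the role medians. The medians of heat shock proteins (-0.67), ER chaperones (-0.58) and disulfide isomerases (-0.56) lie left of the mode of all genes, and that of ATF4 and CHOP targets (0.55) lies to the right.

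The heat shock proteins had a median of -0.67, or by mouse -0.47 (4001), -0.59 (4002) and -0.75 (4007). Of the 8 members 6 were lower in all LBR-null libraries, 2 overlapped and none was higher in all of them, beside 25.7% of all genes lower and 25.5% higher. Hsph1 encodes HSP110, which exchanges nucleotide on HSP70 and helps it to dissolve aggregates (chr5:150416862-150438951, reverse strand, mm9). It was measured at 1193 and 1115 normalized counts in mouse 4001, 2701 in mouse 4002 and 1659.6 and 1605 in mouse 4007, against 5463 and 5443 in the WT mouse. The order of the mice was clear, with 4001 lowest and 4002 highest, and each was below WT. The mean of 1829 ± 792 (SD, n = 3 mice) was 2.98-fold lower than WT, the largest ratio among the 37 genes in this direction. The log2 difference was -1.66 ± 0.46 (SE; limma adjusted p = 0.136), DESeq2 gave an adjusted p of 0.0244, and limma without mouse 4002 gave -1.99 with an adjusted p of 0.0212.

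Hspa1a and Hspa1b are the stress-inducible HSP70 genes, which sit side by side on chromosome 17 (chr17:35106144-35109069, reverse strand and chr17:35093381-35096183, reverse strand, mm9). Their coding sequences differ at 11 of 1929 aligned positions (99.4% identical), so the split of reads between them is uncertain. Hspa1b was at 894 and 814 normalized counts in mouse 4001, 3097 in mouse 4002 and 1718 and 1798 in mouse 4007, against 4366 and 4263 in the WT mouse. Every library was below WT, but the mice were wide apart and the log2 difference was -1.37 ± 0.64 (SE; limma adjusted p = 0.319). Hspa1a was at 878 and 782 normalized counts in mouse 4001, 2021 in mouse 4002 and 1450.1 and 1519 in mouse 4007, against 2040.4 and 1846 in the WT mouse. Here mouse 4002 lay between the WT libraries, and the log2 difference was -0.52 ± 0.48 (SE; limma adjusted p = 0.607). Summed over both genes, which avoids the split, the LBR-null libraries held 1596 to 5118 and the WT libraries 6109 and 6406. The mean of the sum was 1.87-fold lower than WT over all 3 mice, short of the 2-fold limit that Hspa1b passed by itself. Without mouse 4001 the sum was 4180.3 against 6258, also short of the limit, as was Hspa1b at 1.78-fold. Without mouse 4002 the sum was 2.54-fold lower. The ratio of Hspa1b to Hspa1a was 1.02 and 1.04 in mouse 4001, 1.53 in mouse 4002, 1.18 in both libraries of mouse 4007, and 2.14 and 2.31 in WT. The model of Hspa1a shares 552 bases with Gm20481 on the opposite strand.

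Hspa8 encodes the constitutive HSC70 and was the most abundant member, with 28497 and 28279.5 normalized counts in mouse 4001, 23204 in mouse 4002 and 23220.5 and 23508 in mouse 4007, against 43891 and 44301 in the WT mouse. The LBR-null libraries were close together, well under WT, and the log2 difference was -0.83 ± 0.40 (SE; limma adjusted p = 0.335). Hspd1, the mitochondrial chaperonin HSP60, had 7832 and 7076 normalized counts in mouse 4001, 3638 in mouse 4002 and 3915 and 3719.7 in mouse 4007, against 8802 and 9103 in the WT mouse. Mice 4002 and 4007 shared a low level while mouse 4001 was nearer to WT, and the log2 difference was -0.93 ± 0.45 (SE; limma adjusted p = 0.333). Without mouse 4001 it was -1.26 with an adjusted p of 0.0312 in limma. Hspe1, its co-chaperonin HSP10, which is transcribed away from Hspd1 and shares 112 bases with its model, also stood lower, with 3866 and 2824 normalized counts in mouse 4001, 2669.7 in mouse 4002 and 2175 and 2069.9 in mouse 4007, against 4985 and 5294 in the WT mouse.

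Dnajb1, the HSP40 partner of HSP70, had 1278 and 1279 normalized counts in mouse 4001, 919 in mouse 4002 and 1005 and 997 in mouse 4007, against 1512 and 1485 in the WT mouse. All libraries were below WT, and the log2 difference was -0.50 ± 0.27 (SE; limma adjusted p = 0.38). Hsp90aa1, the inducible cytosolic HSP90, had 9467 and 8528 normalized counts in mouse 4001, 8593 in mouse 4002 and 7663 and 7136 in mouse 4007, against 10912 and 11266 in the WT mouse. The gap to WT was small but present in every library, and the log2 difference was -0.42 ± 0.30 (SE; limma adjusted p = 0.497). Hspb1, the small heat shock protein HSP27, alone in the group had a positive log2 difference, 0.27 ± 0.27 (SE; limma adjusted p = 0.651), and its libraries overlapped WT through mouse 4001.

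Per kilobase of exon (union of the mm9 gene models), the order of the members in WT was led by Hspa8 (10610.2 normalized counts per kb), Calr (6446), P4hb (5010.2), Pdia3 (4205) and Hsp90b1 (3727). In the LBR-null mean, Hspa8 was still first (6012), followed by Herpud1 (4401) and P4hb (4395), which lay within the spread between mice of each other, and Calr was at 2741. Chac1, Ern1 and Trib3 were the lowest in WT, at 8.88, 11.8 and 17.6.

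The members with a match to an ER stress response element were set beside those without a match. Of the 10 members with either form, 6 were lower in all LBR-null libraries (Hspa5, Hsp90b1, Calr, Dnajb11, Pdia6 and Syvn1), none was higher and 4 overlapped (Canx, Dnajc3, Creld2 and Herpud1), and their median log2 difference was -0.52. Of the 22 members with a window and neither form, 7 were lower, 5 were higher and 10 overlapped, with a median of -0.13. The shares of all genes tested were 25.7% lower and 25.5% higher, to which these 22 members were near. All 5 higher members were thus among those whose windows held no match to the letters. A match did not go with a single level, since Calr (-1.27) and Herpud1 (0.62) lie at opposite ends of the 10. Both members with a heat shock element in the window, Hsph1 and Hspd1, were lower in all libraries, but so were Hspa1b and Dnajb1, whose windows hold no such letters. The difference between the classes was not tested.

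**Figure D4:**
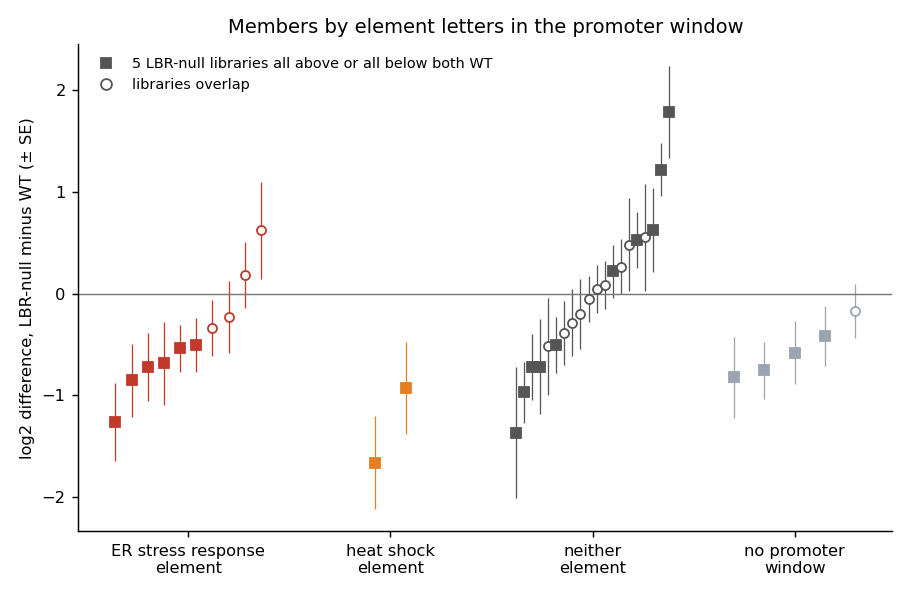
Each point is a member with its log2 difference (LBR-null minus WT, vertical axis) and SE from limma, placed by the element letters found in its promoter window, with filled squares where the libraries do not overlap. Squares in the class with an ER stress response element all lie below 0, and the 5 squares above 0 are all in the class with neither element.

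Further genes of the same pathways, kept in 3 lists apart from the members, had medians nearer to 0. None passed limma, edgeR called none, and DESeq2 called 1 higher and 6 lower in all, where it called 3.24% and 3.48% of all genes. Of 52 tested genes of ER folding and degradation, 18 were lower in all LBR-null libraries and 9 were higher, beside 25.7% and 25.5% of all genes, with a median log2 difference of -0.13. The lowest of those apart from WT were Fkbp11 (55.8 ± 6.77 against 123), an ER prolyl isomerase, Pdia5 (263 ± 42.8 against 527) and Fkbp2 (1603 ± 316 against 2819). The highest of them were Cdnf (95.4 ± 16.9 against 47.4), a relative of Manf, Derl3 (37.7 ± 13.3 against 19.9), a degradation factor, and Vimp (2103 ± 563 against 1272), a selenoprotein that recruits p97 to the ER. Each is a mean ± SD over 3 LBR-null mice in normalized counts. Derl3 was at low counts, and mouse 4002 lay only just over WT, at 22.4 against 18.1 and 21.7. Cdnf and Manf, the 2 members of one small family, thus lay on opposite sides of WT.

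Of 53 tested further sensors, eIF2α kinases and ATF4 branch genes, 16 were lower, near the 25.7% of all genes, and 10 were higher, beside 25.5%. Their median was -0.04. Ddit4, an inhibitor of mTORC1 that ATF4 and other stress factors induce, was at 6002 and 5268 normalized counts in mouse 4001, 3559 in mouse 4002 and 6375 and 6685 in mouse 4007, against 1969 and 1796 in the WT mouse. No LBR-null library came near WT, and the log2 difference was 1.43 ± 0.38 (SE; limma adjusted p = 0.129). Among genes apart from WT, Creb3l3 (1.32) and the cystine transporter Slc7a11 (1.26) followed on the log2 scale, both at low counts. Slc7a11 was highest in the library of mouse 4002, at 62.8 normalized counts, and its log2 difference was 0.73 without that mouse. The lowest of them were Creb3l1 (-1.85), a membrane-bound factor that controls collagen secretion, Phgdh (-1.40), the first enzyme of serine synthesis, and Gpt2 (-1.25), a mitochondrial transaminase. Phgdh and Gpt2, like Asns, are amino acid enzymes known as ATF4 targets, and they lay on the opposite side from Trib3 and Ddit4. Other amino acid enzymes of the list were divided. Psph (-0.59), Shmt2 (-0.93), Aldh18a1 (-0.87) and Cth (-0.41) were lower in all LBR-null libraries. Cbs (0.84) was higher in all of them, and Psat1 (-0.04) and Pycr1 (0.10) overlapped WT. The grouping was not tested.

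Of 56 tested further chaperone and heat shock genes, 17 were lower, near the 25.7% of all genes, and 9 were higher, beside 25.5%, with a median of -0.11. Serpinh1, the collagen chaperone HSP47 of the ER, was at 4081 and 3628 normalized counts in mouse 4001, 3726 in mouse 4002 and 2008 and 2175 in mouse 4007, against 9558 and 9355 in the WT mouse. Every library was below WT by more than 2-fold, and the log2 difference was -1.60 ± 0.40 (SE; limma adjusted p = 0.12). Hspa4l, of the HSP110 family, and Fkbp4, an HSP90 co-chaperone, stood at -1.28 and -1.18 on the log2 scale, with adjusted p of 0.107 and 0.114 in limma. The highest of those apart from WT were the small heat shock proteins Hspb7 (1.33) and Hspb6 (1.32), which are abundant in striated and smooth muscle, and Dnajc7 (0.92). Hspb7 had 1307 and 1141 normalized counts in mouse 4001, 239 in mouse 4002 and 258 and 276 in mouse 4007, against 198 and 142 in the WT mouse. The top values were those of mouse 4001, the mouse with Ckm at 536 and 622, without which the log2 difference of Hspb7 was 0.57, and the part of muscle RNA in this was not tested.

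**Figure D5:**
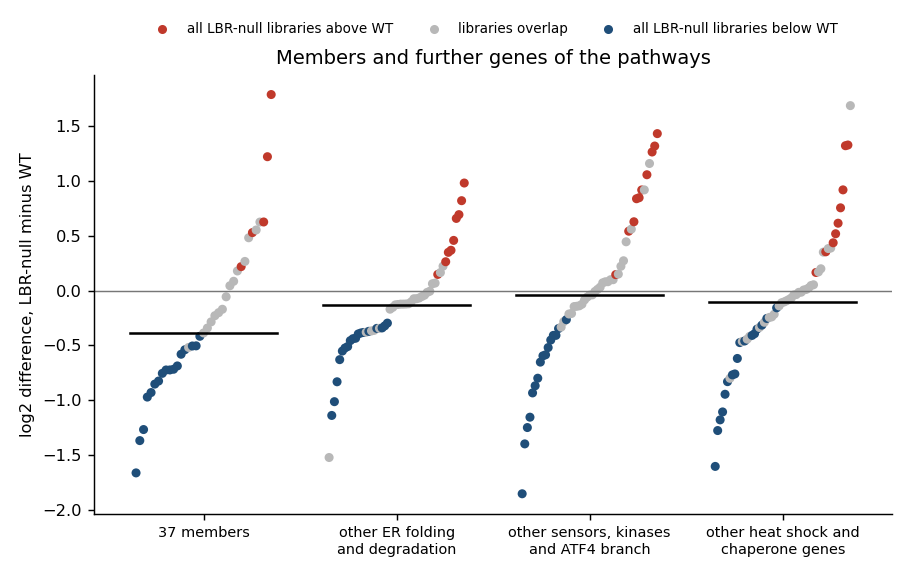
The log2 difference (LBR-null minus WT, vertical axis) of each tested gene is drawn in rising order for the members and 3 lists of further pathway genes, coloured by whether the 5 LBR-null libraries lie above, below or across the WT libraries, with black lines for medians. The medians are -0.39 for the 37 members and -0.13, -0.04 and -0.11 for the 3 lists.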

How the data were processed

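Polyadenylated kidney RNA of 3 LBR-null mice and 1 WT littermate was sequenced as 7 paired-end libraries. Alignment to mm9 by the authors used STAR 2.6.0, and the deposited signal per gene symbol is the read count divided by a size factor from DESeq2 1.25.1. The counting program and its annotation are not given in the sources used here. Values of every library were whole multiples of 1 step (100% within 0.01 read), so reads could be recovered.

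Libraries were averaged within a mouse, the replicate. limma 3.58.1 (R 4.3.3, eBayes with a trend) was run on log2(normalized count + 1) for the 17283 genes whose mean over mice reached 5, and p-values were adjusted over all of them (Benjamini-Hochberg). edgeR 4.0.16 (quasi-likelihood) and DESeq2 1.42.0 were run on recovered reads summed per mouse, and DESeq2 left 671 genes without an adjusted p. The fits were tested on simulated data with known changes. That checks the code and not the power at the spread between these mice. A gene was counted as lower or higher in all libraries when the 5 LBR-null values lay on 1 side of both WT values. P-values cover the spread between these mice only.

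Gene positions and exon lengths come from GENCODE vM1 on mm9, the build of the files, and promoter windows from RefSeq on GRCm38.p6, which was used for the promoter stretches and their coordinates alone. The 37 members, the role groups, the further lists, the markers and the tests were chosen with earlier results of these data known. Every member is named, and from each further list the 3 highest and the 3 lowest log2 differences among genes whose libraries do not overlap. Hspe1, Lbr, Xist, Ddx3y, Ckm and Acta1 and the 2 kidney markers given with values were added by name after their values were seen. So were Cbs, Psat1, Pycr1, Psph, Shmt2, Aldh18a1 and Cth.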

Additional observations from a re-analysis of the deposited data

Results flagged for a closer look

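In 2 of the 37 members, 1 of the 5 LBR-null libraries lay apart from the other 4 by Dixon's 95% limit, a rate that chance gives in about 1 in 20 groups, and libraries of 1 mouse are not independent. Ern1 was at 256 normalized counts in the second library of mouse 4001, while the other LBR-null libraries held 98 to 139 and the WT libraries 85.9 and 106. Ddit3 was at 602 in the first library of mouse 4001, with 445 to 461 in the other 4 and 397 and 421 in WT. In both genes the other library of mouse 4001 lay among or near the remaining ones.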

How the results depend on the processing

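Recomputing the 37 log2 differences under 15 alternatives changed no sign among the 22 members whose libraries do not overlap WT, and 4 signs in 3 others (Dnajc3 at -0.01 without mouse 4001 and at -0.11 in mouse 4002 alone, Herpud1 at -0.03 and Hspa1a at 0.06 in mouse 4002 alone). Of the 516 such values with an adjusted p, 9 passed both limits of the test, which no member passed as reported. With the second library of each mouse that has one, 8 members were higher and 20 were lower in all LBR-null libraries (33.5% and 32.2% of all genes). In mouse 4002 alone, an alternative chosen after seeing the data, 8 were higher and 26 were lower (46.4% and 44.3% of all genes). DESeq2 called 2 members higher and 2 lower. When 1 LBR-null mouse was left out, the number higher in all libraries ran from 5 (28.1% of all genes, without mouse 4007) to 9 (29.7%, without mouse 4002), and limma called 0 to 2 higher and 0 to 2 lower, with the larger counts of calls without mouse 4001. Libraries scaled to equal totals gave 21 members lower and TMM scaling 19, beside 17 as reported (26.1%, 27.2% and 25.7% of all genes). No scaling moved the median of all genes by 0.1 on the log2 scale.

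No paired analysis was possible because the replicate numbers in the labels count the libraries of 1 mouse, which were averaged, and do not tie mice of different genotypes to each other. The deviation of the single WT mouse from other WT mice enters every difference. Chac1, with 11.8 to 29.2 normalized counts per library, is the member for which depth limits most.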
